A study of Mus musculus with 6 samples.

Results

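The genes described here are the 7 receptors of the SLAM family (Slamf1, Slamf6, Slamf7, Cd244, Ly9, Cd84 and Cd48) and Sh2d1a, which encodes the adaptor SAP. These 8 genes were taken by symbol from a table of 17985 genes, and all 8 averaged 1 CPM or more (reads scaled to a common library total) and were among the 15691 genes tested. RNA-seq was done on thymic iNKT1 cells, the T-bet-expressing, interferon-producing subset of invariant natural killer T cells, from untreated mice of C57BL/6 background. The control group (Ctrl, 3 libraries) had the genotype Tbx21CreTg;Rosa26-LSL-YFP+/+, and the conditional knockout group (cKO, 3 libraries) had the same alleles together with Tgfbr2F/F. Both groups therefore carried the Cre transgene and the reporter, and differed by the loxP-flanked alleles of Tgfbr2, a TGF-beta receptor gene. The Cre is driven by Tbx21, so it acts in cells that express this gene and not in all thymocytes. The ages of the mice, the number of mice behind a library and the sort are not given in the sources used here, and p-values measure the spread between libraries. In bulk RNA, fewer cells of a type and less RNA per cell cannot be told apart.

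SLAM family receptors are cell-surface glycoproteins of the immunoglobulin superfamily. Slamf1, Slamf6, Slamf7, Ly9 and Cd84 bind a copy of themselves on a neighbouring cell, whereas Cd244 (2B4) binds Cd48, which is held in the membrane by a lipid anchor and has no cytoplasmic tail. Tyrosine motifs in the receptor tails recruit SAP, a small protein made of a single SH2 domain that brings in the kinase Fyn, or phosphatases such as SHP-1 when SAP is scarce. iNKT cells are selected in the thymus by double-positive thymocytes that present lipid on Cd1d, and the contact between SLAM receptors on both cells, with SAP and Fyn behind them, is needed for that development.

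The libraries held from 28832779 to 68092478 reads, so 1 read was worth between 0.0147 and 0.0347 CPM and every receptor was read far above this floor. The replicate 3 libraries stood apart from the other 4: 4406 genes (Ctrl) and 4590 genes (cKO) were at 0 in them, against at most 5 genes in each of the others. Same-numbered libraries deviated together, with correlations of their deviations from the group means of 0.855, 0.687 and 0.924 for replicates 1 to 3. Different-numbered libraries among replicates 1 and 2 deviated together about as closely (0.718 for Ctrl replicate 2 with cKO replicate 1 and 0.578 for Ctrl replicate 1 with cKO replicate 2), and replicate 3 deviated against both, so these values mainly set replicate 3 apart. The replicate number was also used as a block, and both values are given. Tgfbr2, the targeted gene, was at 461, 461 and 425 CPM in the Ctrl libraries against 289.8, 257.6 and 274 CPM in the cKO libraries (limma adjusted p 0.0207, which checks the labels). Its cKO mean was 61.0% of its Ctrl mean. The adjusted p of Tgfbr2 was 0.0687 in edgeR without the block, 0.00261 in edgeR with it and 0.373 in the authors' deposited table. All 10 genes of an iNKT1 identity list, Zbtb16, Tbx21, Il2rb and Ifng among them, were read in every library, with summed levels of 7555 to 9554 CPM in Ctrl and 7925 to 10967 CPM in cKO. Of these, Xcl1 was lower in cKO (limma adjusted p 0.0281 without the block and 0.00147 with it). Il2rb passed as higher with the block (limma adjusted p 0.0166) and not without it (0.999981).

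The group means of SLAM family members differed in both directions, and which members were called depended on the fit. Cd244 was at 30.4% of its Ctrl mean, Slamf1 and Slamf6 were at 210.2% and 248%, Sh2d1a was at 157% and Cd84 at 130.5%, while Ly9, Cd48 and Slamf7 stayed between 88.7% and 108%. In limma without the block no member passed an adjusted p of 0.05 over all genes tested, where 104 genes or 0.663% passed (0.204% higher and 0.459% lower), and 5 of the 8 had an unadjusted p under 0.05, as did 6.02% of all genes tested. edgeR without the block called no member either. With the replicate block 5 of the 8 members passed, Cd244 lower and Slamf1, Slamf6, Sh2d1a and Cd84 higher, where 451 genes or 2.87% passed (1.24% higher and 1.64% lower). The replicate block gave the same 5 members in edgeR (2.99% of genes) and under TMM scaling (3.27%), DESeq2 without a block called all of these but Sh2d1a (4.36%), and replicates 1 and 2 alone gave Cd244 and Slamf1 (1.85%). The median log2 fold change of the 8 members was 0.24, beside -0.0382 over all genes tested. The groups did not overlap for 4 members, Slamf1 and Cd84 higher and Cd244 and Slamf7 lower, where 11% of all tested genes did not overlap (3.89% higher and 7.1% lower).

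**Figure D1:**
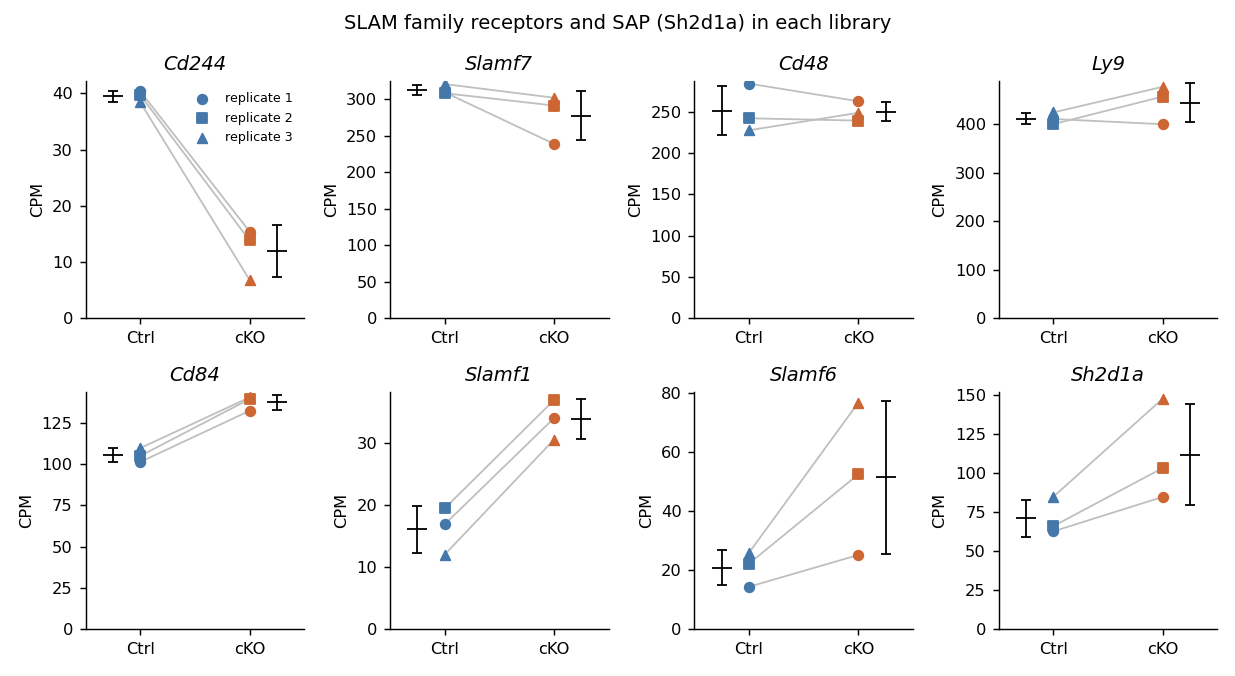
CPM of each of the 8 genes in every library; grey lines join same-numbered libraries, marker shapes give the replicate, and black bars give the mean and SD of 3 libraries. Cd244 lies between 38.4 and 40.4 CPM in Ctrl and between 6.78 and 15.4 CPM in cKO, and the lines of Slamf1, Slamf6, Cd84 and Sh2d1a all point upward.

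The 7 receptor genes lie in a cluster on chromosome 1 and Sh2d1a is on the X chromosome. For the members that differed most, and for Cd84, which lies between Slamf1 and Slamf6, the 250 bases before the RefSeq transcription start are shown. The promoters of the receptors called higher with the replicate block can so be read side by side with that of Cd244. They are from RefSeq on GRCm38.p6, plus strand, 5′ to 3′: Slamf1 from chr1:171766882-171767131, Cd84 from chr1:171839447-171839696, Slamf6 from chr1:171917212-171917461 and Cd244 (Cd244a in RefSeq) from chr1:171558943-171559192. Capitals mark a match, on either strand, to 1 of 4 motifs: the SMAD box CAGAC, the RUNX site TGTGGT, the T-box core AGGTGT and the TCF/LEF site CTTTGA.
Slamf1: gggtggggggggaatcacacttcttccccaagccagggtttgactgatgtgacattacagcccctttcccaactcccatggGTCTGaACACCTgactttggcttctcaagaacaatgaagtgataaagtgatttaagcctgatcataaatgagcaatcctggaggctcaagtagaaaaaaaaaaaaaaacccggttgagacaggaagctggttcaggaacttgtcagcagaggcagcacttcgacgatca
Cd84: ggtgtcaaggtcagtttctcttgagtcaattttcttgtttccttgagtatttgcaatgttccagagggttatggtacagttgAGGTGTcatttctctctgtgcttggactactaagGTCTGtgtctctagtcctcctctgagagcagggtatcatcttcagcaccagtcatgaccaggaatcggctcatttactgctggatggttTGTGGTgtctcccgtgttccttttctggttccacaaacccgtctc
Slamf6: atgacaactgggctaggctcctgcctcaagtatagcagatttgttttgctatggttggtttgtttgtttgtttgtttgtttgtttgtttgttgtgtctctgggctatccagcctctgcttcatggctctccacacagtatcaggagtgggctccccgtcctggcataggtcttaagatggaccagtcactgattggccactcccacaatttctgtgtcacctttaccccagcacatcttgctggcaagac
Cd244: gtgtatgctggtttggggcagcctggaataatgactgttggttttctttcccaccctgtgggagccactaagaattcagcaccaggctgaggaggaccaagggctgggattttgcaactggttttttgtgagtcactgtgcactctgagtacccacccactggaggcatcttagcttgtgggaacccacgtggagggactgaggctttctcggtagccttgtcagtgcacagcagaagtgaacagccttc

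Both Slamf1 and Cd84 held a SMAD box and a T-box core in this window, which did not overlap each other, and Cd84 also held a RUNX site. The window of Cd48, whose level was about the same in both groups, held a SMAD box, a RUNX site and a TCF/LEF site. None of the 4 motifs was spelled in the windows of Slamf6, Cd244 or Slamf7. The RefSeq start of Slamf6 lies 53 bases before the GENCODE M21 start of the gene, so its window could not be checked against an M21 transcript. The window of Slamf7, on the minus strand, runs from 171649000 to 171649249, whereas its M21 gene reaches to 171653035. That window is therefore inside the M21 gene and not before its start. Over 32851 RefSeq promoter windows of this length, 42.2% held the SMAD box, 14.05% the RUNX site, 11.8% the T-box core and 13.8% the TCF/LEF site, so a match to the first is common. The matches are letters in a window and were not tested as binding sites. RefSeq windows were found for 6 of the 8 genes, all but Ly9 and Sh2d1a.

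Cd244, a receptor that natural killer cells and cytotoxic T cells use to sense Cd48, was the only member called lower with the block (ENSMUSG00000004709, chromosome 1, 171559193 to 171609746, plus strand). In replicate order, the Ctrl libraries had 40.4, 39.7 and 38.4 CPM and the cKO libraries 15.4, 13.8 and 6.78 CPM. The Ctrl libraries were nearly level, all cKO libraries lay under all Ctrl libraries, and cKO replicate 3 was the lowest. The Ctrl mean was 39.5 ± 0.999 CPM and the cKO mean 12.0 ± 4.59 CPM (SD, n = 3 each). The log2 fold change was -1.71 (SE 0.28), and its 95% interval ran from -2.38 to -1.04. The limma adjusted p was 0.0708 without the block and 0.00235 with it. Within same-numbered pairs the log2 difference was -1.34, -1.46 and -2.34. In replicates 1 and 2 alone, without the replicate 3 libraries, Cd244 passed with a limma adjusted p of 0.00144 and a log2 fold change of -1.40, and the authors' deposited table gives it an adjusted p of 5.39e-05 and marks it lower.

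The annotated span of Cd244 contains that of Ly9 on the opposite strand, but their exons share 0 bases in GENCODE M21. Ly9 was at 108% of its Ctrl mean in cKO. Cells of the natural killer lineage express Cd244, and 5 of their markers were measured. Eomes was at most 1.39 CPM, Ncr1 at most 2.28 CPM and Klra8 at most 8.65 CPM in any library. Klri2 ran from 5.0 to 51.2 CPM in Ctrl and from 17.4 to 36.1 CPM in cKO, and Itga2 from 12.9 to 18.0 and from 17.5 to 28.7 CPM (limma adjusted p 0.736, and 0.151 with the block). The summed level of the 5 natural killer markers ran from 28.9 to 77.9 CPM in Ctrl and from 38.2 to 74.0 CPM in cKO, so the groups overlapped, and the part of such cells in the Cd244 values was not tested.

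Cd48, the ligand of Cd244, was the most abundant family member per length and did not move with its receptor (ENSMUSG00000015355, chromosome 1, 171682009 to 171705258, plus strand). It was read at 283.9, 242 and 227 CPM in Ctrl and at 262.5, 239 and 249 CPM in cKO. The groups overlapped, with Ctrl replicate 1 the highest. The log2 fold change was -0.00056 with a 95% interval from -0.25 to 0.25, and its sign flipped to 0.04 under TMM scaling. The limma adjusted p was 0.999981 without the block and 0.999 with it.

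Slamf1 (CD150) and Slamf6 (Ly108), the receptors whose homotypic contacts support iNKT selection, were the family members with the lowest Ctrl levels and the largest increases. Slamf1 (ENSMUSG00000015316, chromosome 1, 171767127 to 171801184, plus strand) had levels of 16.8, 19.4 and 12.0 CPM in Ctrl and at 34.0, 36.9 and 30.5 CPM in cKO. All cKO libraries lay over all Ctrl libraries, and in both groups replicate 2 was the highest and replicate 3 the lowest. The Ctrl mean was 16.1 ± 3.78 CPM and the cKO mean 33.8 ± 3.19 CPM (SD, n = 3 each). The log2 fold change was 1.05 (SE 0.19), and its 95% interval ran from 0.60 to 1.50. The limma adjusted p was 0.101 without the block and 0.00399 with it. In replicates 1 and 2 alone it was 0.0133 at a log2 fold change of 0.93, and the log2 difference within pair 3 was 1.28.

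Slamf6 (ENSMUSG00000015314, chromosome 1, 171917515 to 171953170, plus strand) had levels of 14.3, 22.1 and 25.8 CPM in Ctrl and at 25.04, 52.4 and 76.6 CPM in cKO. The groups overlapped, because cKO replicate 1 was just below Ctrl replicate 3, and in both groups replicate 1 was the lowest and replicate 3 the highest. The means were 20.7 ± 5.87 and 51.4 ± 25.8 CPM (SD, n = 3 each). The log2 fold change was 1.17, with a 95% interval from 0.19 to 2.15 without the block and from 0.82 to 1.53 with it. The limma adjusted p was 0.647 without the block and 0.0046 with it, and the log2 difference within the pairs was 0.77, 1.21 and 1.54. Replicates 1 and 2 alone, tested without the block, gave 0.99 and an adjusted p of 0.520. In the authors' deposited table Slamf1 and Slamf6 have adjusted p values of 0.0173 and 0.0214, so 3 of the 8 members are under 0.05 there, where 0.801% of all genes are. Of these the authors marked Cd244 and left Slamf1 and Slamf6 unmarked.

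Cd84, a self-binding receptor that also recruits SAP, showed a smaller difference with little spread (ENSMUSG00000038147, chromosome 1, 171839697 to 171890718, plus strand). It was read at 101.3, 105 and 109.7 CPM in Ctrl and at 132.4, 139.5 and 140.6 CPM in cKO. All cKO libraries lay over all Ctrl libraries. The log2 fold change was 0.38 (SE 0.0782), and the pairs gave 0.38, 0.41 and 0.35. The limma adjusted p was 0.152 without the block and 0.0476 with it.

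The 2 remaining receptors with tails were abundant and did not pass in any fit. Ly9 (CD229; ENSMUSG00000004707, chromosome 1, 171588624 to 171607410, minus strand) had levels of 410.5, 399.8 and 424 CPM in Ctrl and at 399.6, 457 and 477 CPM in cKO, and the groups overlapped. Its log2 fold change was 0.11 with a 95% interval from -0.11 to 0.33 (limma adjusted p 0.999981, and 0.681 with the block). Slamf7 (CRACC), a self-binding receptor of cytotoxic lymphocytes that signals mainly through the SAP relative EAT-2, was read at 309.6, 308 and 321 CPM in Ctrl and at 239, 291 and 302 CPM in cKO (ENSMUSG00000038179, chromosome 1, 171632403 to 171653035, minus strand). All cKO libraries lay under all Ctrl libraries, by little except in replicate 1. Its log2 fold change was -0.18 with a 95% interval from -0.43 to 0.0735 (limma adjusted p 0.999981, and 0.449 with the block). The antisense transcript Gm37787 shares 423 exon bases with Slamf7, or 9.24% of its exon length, and averaged 6.31 CPM over the Ctrl libraries and 5.54 CPM over the cKO libraries.

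Sh2d1a, the adaptor through which most of these receptors act, was higher in cKO in all 3 pairs (ENSMUSG00000005696, chromosome X, 42502453 to 42529330, plus strand). It was read at 62.6, 65.9 and 84.7 CPM in Ctrl and at 84.66, 103.2 and 147.7 CPM in cKO. The groups overlapped, because Ctrl replicate 3 and cKO replicate 1 were level, and replicate 3 was the highest in both. The means were 71.1 ± 11.9 and 111.8 ± 32.4 CPM (SD, n = 3 each). The log2 fold change was 0.62, with a 95% interval from 0.0996 to 1.14 without the block and from 0.39 to 0.85 with it. The limma adjusted p was 0.647 without the block and 0.0122 with it.

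At its 3′ end Sh2d1a shares 1465 exon bases, 26.6% of its exon length, with Tenm1 on the opposite strand, and whether the counting used strand is not given in the sources used here. Tenm1 was at 8.09, 8.29 and 0.0189 CPM in Ctrl and at 8.19, 5.04 and 0 CPM in cKO. The Sh2d1a log2 difference within the pairs was 0.43, 0.64 and 0.79. The part of Tenm1 reads in the Sh2d1a values was not tested.

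**Figure D2:**
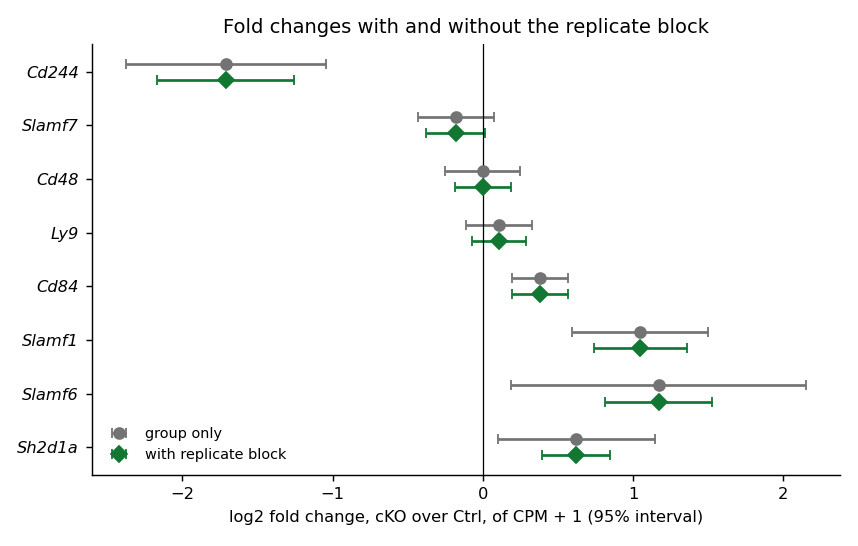
Log2 fold change of each gene, cKO over Ctrl, on the scale of CPM + 1, with 95% limma intervals from the fit on group alone (grey circles) and with the replicate block (green diamonds). With the block the intervals of Cd244, Cd84, Slamf1, Slamf6 and Sh2d1a lie off 0 and those of Slamf7, Cd48 and Ly9 cross it.

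The summed level of the receptors and ratios between members were also compared between the groups. The summed level of the 7 receptors averaged 1157 ± 20.4 CPM over the Ctrl libraries and 1207 ± 89.3 CPM over the cKO libraries (SD, n = 3 each), with cKO replicate 1 below every Ctrl library. Ly9, Slamf7 and Cd48 together made up 83.6% to 85.3% of that sum in Ctrl and 80.1% to 81.3% in cKO. The ratio of Cd244 to Slamf1 CPM was 2.40, 2.05 and 3.21 in Ctrl and 0.454, 0.375 and 0.223 in cKO, so Cd244 had more reads than Slamf1 in each Ctrl library and fewer in each cKO library. The ratio of Slamf6 to Cd244 CPM was 0.353, 0.556 and 0.671 in Ctrl and 1.63, 3.79 and 11.3 in cKO. These ratios do not depend on scaling between libraries. The ratio of Ly9 to Slamf7 CPM was 1.33, 1.30 and 1.32 in Ctrl and 1.67, 1.57 and 1.58 in cKO. The groups did not overlap in this ratio of 2 abundant receptors, neither of which passed in any fit. Each of these ratios sets a member that was higher in cKO against one that was lower, so its shift follows from the member values. How many other gene pairs separate the groups in this way was not tested.

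Levels of different genes were compared per kb of exon in GENCODE M21. In Ctrl the order was Cd48 at 211 ± 24.7, Ly9 at 124 ± 3.66, Slamf7 at 68.4 ± 1.51, Cd84 at 16.8 ± 0.672, Sh2d1a at 12.9 ± 2.17, Cd244 at 8.10 ± 0.205, Slamf1 at 2.61 ± 0.614 and Slamf6 at 1.91 ± 0.542 CPM per kb (SD, n = 3 each). Only Slamf1 and Slamf6, at the bottom, had overlapping ranges among neighbours in this order. In cKO the first 5 places were the same and Cd244 took the last, at 2.46 ± 0.941 CPM per kb against 5.48 ± 0.518 for Slamf1 and 4.74 ± 2.38 for Slamf6. In cKO the ranges of Cd84 and Sh2d1a overlapped, as did those of Slamf1 and Slamf6 and those of Slamf6 and Cd244. With the length of the longest coding transcript instead, Sh2d1a, whose exon length is mostly outside that transcript, stood above Cd84 in both groups (58.1 against 30.7 CPM per kb in Ctrl). By that length Sh2d1a also stood above Slamf7 in cKO (91.5 against 69.8 CPM per kb), with overlapping ranges. The cKO ranges of Slamf6 and Cd244 were then apart.

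**Figure D3:**
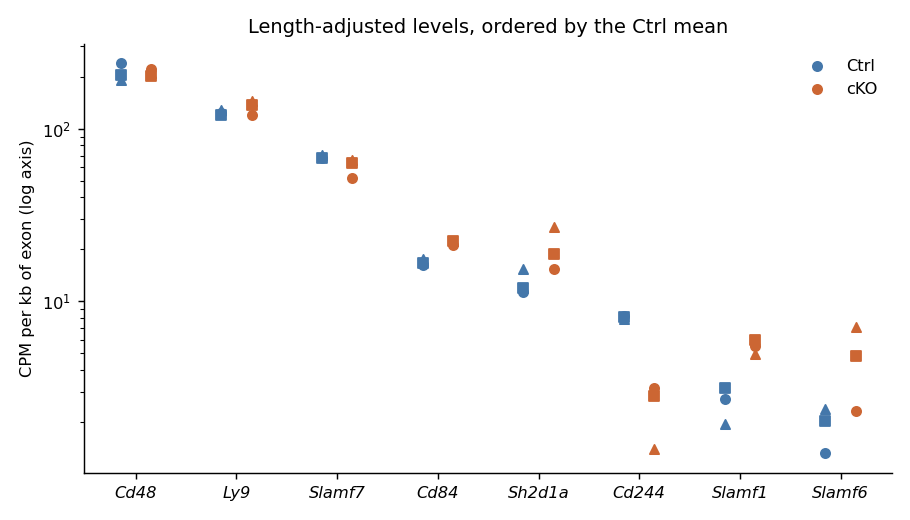
CPM per kb of GENCODE M21 exon on a log axis for each gene and library, ordered by the Ctrl mean; circles, squares and triangles are replicates 1, 2 and 3. The cKO points of Cd244 (1.39 to 3.16) lie below the Ctrl points (7.88 to 8.28), while those of Slamf1 and Slamf6 are shifted up.

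Along chromosome 1 the receptor genes follow each other over 394 kb in the order Cd244, Ly9, Slamf7, Cd48, Slamf1, Cd84 and Slamf6. The 3 receptors called higher with the replicate block, Slamf1, Cd84 and Slamf6, are next to each other at the distal end. No other gene of the table lies between them. Without the block none of the 3 passed in limma (adjusted p 0.101, 0.152 and 0.647), and the groups overlapped for Slamf6. Cd244, called lower with the block, lies at the opposite end. The 3 members between, Ly9, Slamf7 and Cd48, did not pass without the block or with it. In a window that reaches 200 kb beyond the cluster on each side, 14 genes that are no SLAM receptors were tested. None of them passed with limma without the block or with it, nor with edgeR or DESeq2. Without the block 1 (Alyref2) had an unadjusted limma p under 0.05, as did 6.02% of all genes tested. Their log2 fold changes ran from -0.55 to 0.10 with a median of -0.064. In 2 of the 14 the groups were apart, Alyref2 and Pex19, each lower in cKO. Of all tested genes 11% did not overlap (7.1% lower).

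**Figure D4:**
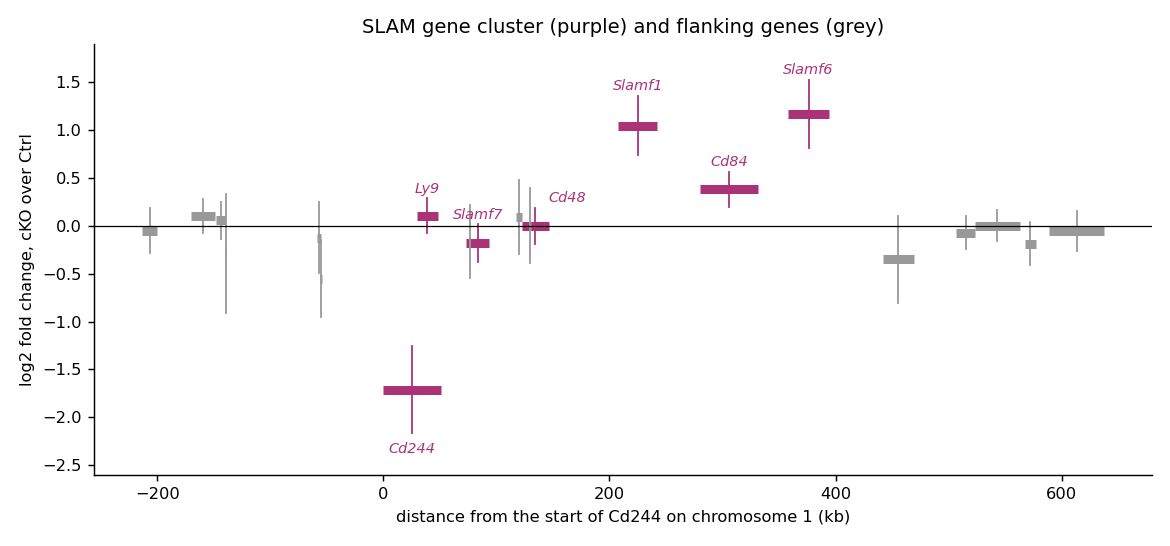
Log2 fold change of the genes in the SLAM cluster and within 200 kb of it against distance from the start of Cd244; horizontal bars span each gene, vertical lines are 95% intervals with the replicate block. Slamf1, Cd84 and Slamf6 lie above 0 side by side at the right end of the cluster, Cd244 lies below 0 at its left end, and the grey flanking genes show no called change.

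Partner genes of the pathway were read from 3 lists chosen for their role, with earlier results of these data known. Of 23 listed genes 19 were tested, and none passed in limma without the block, where 2 had an unadjusted p under 0.05 (10.5% of the 19, beside 6.02% of all genes). With the block 2 of the 19 passed, where 2.87% of all genes did. Fyn, the kinase that SAP recruits, was read at 502.5, 537.5 and 584 CPM in Ctrl and at 679.7, 754 and 743 CPM in cKO. All cKO libraries lay over all Ctrl libraries, at 134% of the Ctrl mean. Its log2 fold change was 0.42 (SE 0.0898), and the limma adjusted p was 0.173 without the block and 0.0144 with it.

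Ptpn6, which encodes the phosphatase SHP-1 of the inhibitory arm, was read at 1629, 1475 and 1688 CPM in Ctrl and at 1151, 1239.8 and 1187 CPM in cKO. All cKO libraries lay under all Ctrl libraries, at 74.7% of the Ctrl mean. Its log2 fold change was -0.42, with a limma adjusted p of 0.133 without the block and 0.0205 with it. Ptpn6 did not pass under TMM scaling with the block (adjusted p 0.053) or in edgeR with the block (0.0673), whereas Fyn passed in both (0.0119 and 0.0152).

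The other partner genes did not pass in limma with the block. Among the 11 kinases and adaptors, which include Lck, Prkcq, Vav1 and Nfkb1, 6 were higher and 5 lower, and the median log2 fold change was 0.00735. Prkcq, the PKC-theta gene that acts after Fyn, had a log2 fold change of 0.22 (limma adjusted p 0.911, and 0.218 with the block). Among the 7 genes of the inhibitory arm 2 were higher and 5 lower, with a median of -0.0402. Inpp5d, the SHIP-1 gene, had a Ctrl mean of 435 ± 40.3 CPM and a cKO mean of 450.5 ± 29.6 CPM (SD, n = 3 each; limma adjusted p 0.999981, and 0.850 with the block). Dok2, an adaptor that restrains Ras, had a log2 fold change of 0.40 and did not pass in limma (adjusted p 0.999981, and 0.0601 with the block). It passed under TMM scaling with the block (limma adjusted p 0.0487). Cd2, a second receptor for Cd48 in mice, had a Ctrl mean of 437 ± 55.1 CPM and a cKO mean of 486 ± 46.0 CPM and did not pass (limma adjusted p 0.999981, and 0.478 with the block). Slamf9 was under the filter, at 1.87, 0.26 and 0 CPM in Ctrl and 2.32, 0.523 and 0 CPM in cKO. Slamf8 and the EAT-2 genes Sh2d1b1 and Sh2d1b2 were not analysed here. Of the 5 genes listed as SLAM relatives, 3 were not found by symbol among the 17985 genes.

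**Figure D5:**
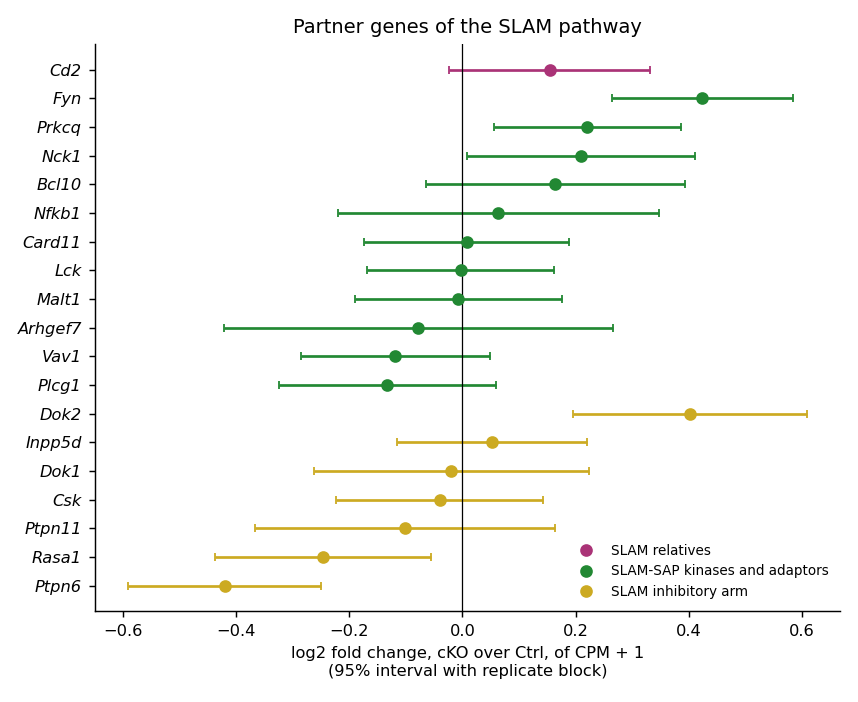
Log2 fold change of the 19 tested partner genes, cKO over Ctrl, with 95% intervals from the fit with the replicate block, coloured by list. Fyn at 0.42 and Ptpn6 at -0.42 were the 2 genes that passed after adjustment over all genes; the other intervals reach closer to 0 or cross it.

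Double-positive thymocytes express Slamf1 and Slamf6 strongly, and some of their markers moved with the groups. The 6 measured genes of an 8-gene double-positive list summed to 130 to 138 CPM in Ctrl and to 169 to 212 CPM in cKO. Most of this was Cd4, which many iNKT cells express themselves. Cd4 was at 111.9 to 129.5 CPM in Ctrl and 143.9 to 194.5 CPM in cKO (limma adjusted p 0.325 without the block and 0.0169 with it). The other 5 summed to 18.6, 16.3 and 7.95 CPM in Ctrl replicates 1 to 3 and to 25.2, 17.5 and 12.3 CPM in the cKO libraries. The groups overlapped, but the cKO library was the higher in all 3 same-numbered pairs, as for Slamf1 and Slamf6. Among them Rag1 was at 0.283 to 1.20 CPM in Ctrl and 1.22 to 2.88 CPM in cKO (limma adjusted p 0.999981 without the block and 0.15 with it). Cd8a was at 0.65 to 2.42 and 2.24 to 3.85 CPM (0.999981 without the block and 0.05003 with it). Rag1 and Cd8a had the largest rises. Cd8b1 and Dntt had log2 fold changes of 0.29 and 0.20, and Arpp21 went the other way at -0.0967. The part of double-positive thymocytes in the Slamf1 and Slamf6 values was not tested.

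B cells and myeloid cells express several of these receptors too. The 5 measured of 7 B cell markers summed to 4.65 to 17.4 CPM in Ctrl and 3.32 to 17.9 CPM in cKO, and Ebf1 was at 0 in both replicate 3 libraries. The 6 measured of 8 myeloid markers summed to 96.4 to 110.0 CPM in Ctrl and 82.6 to 115.7 CPM in cKO, of which Cst3 was the main part, and Csf1r and Flt3 were at 0 in both replicate 3 libraries. For these lists the groups overlapped, and no gene of them passed with limma, edgeR or DESeq2. In limma without the block 0 of their 10 tested genes had an unadjusted p under 0.05, where 6.02% of all genes tested did. With the block 1 of the 10 had. A list of 7 stress genes summed to 156 to 213 CPM in Ctrl and 207 to 275 CPM in cKO. No gene of it was past the threshold in limma, and 1 was in edgeR with the block (Dusp1). With the block 5 of the 7 had an unadjusted limma p under 0.05. The share of all tested genes under this value with the block is not given here, so the 1 of 10 and the 5 of 7 have no background beside them.

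For each member, the 2 genes most like it were found by Pearson's r of log2(CPM + 1) over the 6 libraries, among 8752 genes that averaged 10 CPM or more. The values describe 6 points that share the split between replicate 3 and the rest. Slamf1 was closest to Slc2a3 (0.998) and Nod1 (0.977), Cd84 to Runx1 (0.998) and Gimap7 (0.998), and Slamf6 to Fam210b (0.992) and Agpat3 (0.992). Cd244 was closest to Apol7e (0.997) and Pde4a (0.993), and Sh2d1a to Rac2 (0.995) and Pkm (0.991). Ly9 was closest to Mns1 and Tmbim6, Slamf7 to Ttc39c and Slc35f6, and Cd48 to Amn1 and Tmem30a, with r from 0.981 to 0.994. No member was among the 2 nearest genes of another member.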

How the data were processed

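Libraries came from total RNA of thymic iNKT1 cells (NuGEN Ovation Ultralow, Illumina NextSeq, per the labels' protocols). Trimmomatic 0.33, STAR 2.5.2, HTSeq 0.6.1, edgeR and the build mm10 are named in the submitters' processing notes. The authors deposited CPM per library, with log2 fold changes, a likelihood-ratio score, p-values and adjusted p-values, and marks, per the file headers. The columns named WT and KO were taken as Ctrl and cKO, the only groups of the labels. All values were whole multiples of 1 read (100% within 0.01 read), so reads were recovered for edgeR 4.0.16, which called 40 genes, and DESeq2 1.42.0.

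log2(CPM + 1) was tested with limma 3.58.1 (R 4.3.3; trend, robust; mean of at least 1 CPM; group only), with Benjamini-Hochberg adjustment over 15691 genes and a threshold of 0.05. The fold changes understate changes of low genes. The script was tested on simulated data. Same-numbered libraries correlated in their deviations above 0.1 in all 3 pairs, so the replicate block is printed beside each result. The labels do not state a pairing, and these correlations reflect mainly that both replicate 3 libraries stand apart. With replicates 1 and 2 swapped the correlations were also above 0.1 (0.578 and 0.718), so this rule cannot decide how those libraries pair. Named genes were all members, Tgfbr2, Fyn, partner or flanking genes past the threshold with or without the block, and the 2 nearest patterns. Other partner, overlapping and marker genes were named after their values were seen. The members and lists were chosen with earlier results of these data known. Exon lengths are from GENCODE M21, and 99.1% of the table's identifiers were in it. The lengths the authors deposited equal these for 19.4% of genes and were not used. Alternatives were other scalings, pseudocounts, filters, the block, edgeR, DESeq2, replicates 1 and 2 alone and leaving out each library.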

Additional observations from a re-analysis of the deposited data

How the results depend on the processing

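How many members were called depended on the fit. Against 0 members, 0 partner genes and 104 genes in all, limma with the replicate block called 5, 2 and 451, and TMM scaling with the replicate block 5, 2 and 513, with the same 5 members but with Dok2 in place of Ptpn6 beside Fyn. edgeR's quasi-likelihood test with the replicate block called 5, 1 (Fyn) and 469, and without it 40 genes and no member; DESeq2 called 4, 2 and 552 (279 of the genes higher and 273 lower), with no adjusted p for 3042 genes. Replicates 1 and 2 alone gave 2, 2 and 291. TMM scaling, a pseudocount of 5 and a minimum mean of 5 CPM each called 1 member, Cd244. Leaving out each library in turn gave from 14 to 85 genes, from 0 to 1 members (Cd244, without cKO replicate 3) and 0 partner genes.

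Cd48, near 0, changed sign: 0.0431 under TMM scaling, with or without a replicate block, 0.0395 under edgeR, 0.0435 under edgeR with the replicate block and 0.0462 under DESeq2, and from -0.0685 to 0.0909 when single libraries were left out. The other 7 members kept their direction in all 11 alternatives and all 6 fits that left out a library. Cd244 ran from -1.76 to -1.40 over the alternatives and passed in 8, Slamf1 from 0.89 to 1.14 (5), Slamf6 from 0.99 to 1.38 (4), Cd84 from 0.37 to 0.44 (4) and Sh2d1a from 0.54 to 0.72 (3). Without cKO replicate 1 Slamf6 was at 1.61 and without cKO replicate 3 at 0.82. The cause of these shifts was not tested. At 1 read per 0.0347 CPM or less, depth does not limit the members, whereas Slamf9 is near the floor.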
